A study of Homo sapiens with 15 samples.

Results

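Trefoil factors, anterior gradient genes and the transcription factor SPDEF were followed through 5 sublines of VCaP, an established human prostate cancer cell line that carries the TMPRSS2-ERG fusion. The group held 6 of the 58381 genes listed, namely TFF1, TFF2, TFF3, AGR2, AGR3 and SPDEF, matched from Ensembl identifiers to symbols. The genes were chosen by the counts of TFF3 in these libraries, which were much lower in the resistant sublines, so the levels of TFF3 are given as a description with no test. The other 5 genes came in by family or as the regulator of the group, with earlier results of these data already known. Their tests may therefore not be independent of that choice. Of the 6 genes, 5 passed the filter on low counts and TFF2 did not.

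Trefoil factors are small secreted peptides of mucous epithelia that fold around disulfide bonds and are known for protecting and repairing the gut lining. AGR2 and AGR3 belong to the protein disulfide isomerase family of the endoplasmic reticulum, and AGR2 is needed for intestinal mucin to fold. SPDEF is an ETS-family factor, named for its link to prostate-specific antigen, that drives the secretory programme of goblet cells and is abundant in luminal prostate epithelium.

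VCaP-T cells were grown for 7 months with 10 nM testosterone in RPMI medium with charcoal-stripped serum. VCaP-CT was derived from VCaP-T over 10 months at 0.1 nM testosterone. VCaP-CT-ER came from VCaP-CT kept under 10 µM enzalutamide, an antiandrogen, until growth returned. VCaP-CT-BR came from VCaP-CT under bicalutamide, an older antiandrogen, while for VCaP-CT-BR-ER cells no longer held back by bicalutamide were then given enzalutamide. The treatment field of the labels instead lists 10 nM testosterone for the 10 months, and for VCaP-CT-BR it also lists enzalutamide after bicalutamide. Each subline is described as a single derivation, so treatment, time in culture and derivation cannot be told apart. There were 3 libraries of total RNA per subline and 15 in all, with 33.7 to 46.9 M counted fragments each. All 15 libraries correlated best with a library of their own subline (lowest r within sublines 0.9938, highest between sublines 0.9704, across 13052 genes, which are not independent replicates). The 7 luminal prostate markers (KLK3, KLK2, HOXB13, KRT8, KRT18, EPCAM and ERG) were all tested and summed to between 4780 and 21700 CPM, the counts scaled to a common library size. In contrast, none of 5 gastric markers passed the filter, with a summed level of at most 0.269 CPM, and leukocyte markers summed to at most 0.156 CPM. Other marker sums were highest in VCaP-T and are given with the results. In bulk RNA, fewer cells that express a gene and less RNA per cell cannot be told apart.

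The 3 trefoil genes lie side by side on the minus strand of chromosome 21 (GRCh38), TFF3 at chr21:42311667-42315651, TFF2 at chr21:42346357-42351128 and TFF1 at chr21:42362282-42366594. TFF2 differs from the paired genes on either side in carrying a tandem pair of trefoil domains.

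TFF3, the trefoil factor of intestinal goblet cells, was the gene the group was chosen for. It stood at 52.6, 41.1 and 43.0 CPM in VCaP-T (replicates 1 to 3, in that order throughout), and VCaP-CT libraries had 23.3, 29.7 and 24.1 CPM. VCaP-CT-BR libraries had 2.41, 2.46 and 2.65 CPM, and VCaP-CT-BR-ER libraries 2.14, 2.09 and 1.99 CPM. The lowest values were the 0.683, 0.648 and 0.522 CPM of VCaP-CT-ER, which rest on 33, 31 and 21 fragments. No library of any subline overlapped with a library of another. The mean of VCaP-CT-ER was 41.1-fold below that of VCaP-CT in the fit (log2 fold change −5.36 with a standard error, SE, of 0.14), and VCaP-CT-BR was 10.2-fold below it (−3.36, SE 0.12). From VCaP-T to VCaP-CT the difference was 1.77-fold (log2 fold change −0.82). Leaving out single libraries or changing the fit kept the value of VCaP-CT-ER against VCaP-CT between −5.42 and −5.24. This range only describes the processing and is no support for the fall, by which the gene was chosen. By RPKM, the CPM per kilobase of exon, TFF3 went from the 94.1st percentile of the 19621 tested genes in VCaP-T to the 27.0th in VCaP-CT-ER.

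**Figure D1:**
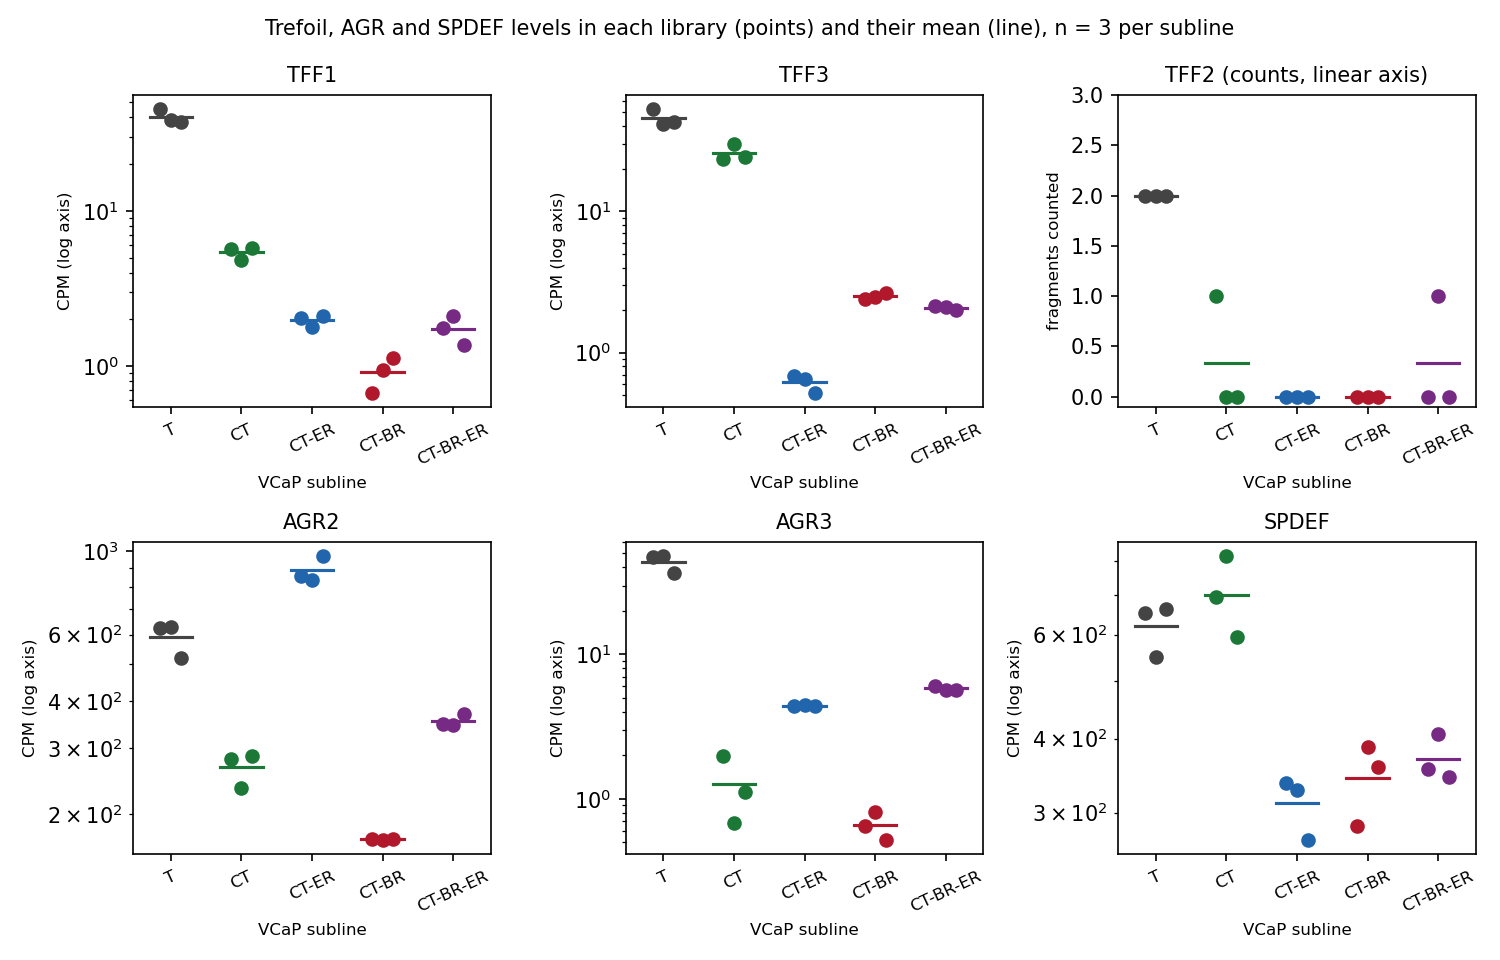
Level of each gene in each of the 15 libraries, by subline. The vertical axis is CPM on a log scale, except for TFF2, which is drawn as fragments counted on a linear axis; points are libraries and the line is the mean of the 3 libraries. TFF1, TFF3 and AGR3 were highest in VCaP-T, AGR2 in VCaP-CT-ER, and SPDEF in VCaP-T and VCaP-CT, whose libraries overlapped. TFF2 had at most 2 fragments in any library.

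TFF1, the estrogen-responsive trefoil factor of stomach and breast cancer, was also highest in VCaP-T, at 45.2, 38.4 and 37.4 CPM. VCaP-CT libraries had 5.68, 4.81 and 5.73 CPM, which was a fall of 7.45-fold (log2 fold change −2.90, SE 0.11, edgeR adjusted p = 2.5e-15). The mean of TFF3 in VCaP-CT was still 25.7 CPM. VCaP-CT-ER libraries held 2.05, 1.78 and 2.09 CPM, 2.75-fold below VCaP-CT (log2 fold change −1.46, edgeR adjusted p = 1.51e-08). VCaP-CT-BR libraries were the lowest, at 0.674, 0.942 and 1.12 CPM, 5.9-fold below VCaP-CT (log2 fold change −2.56, edgeR adjusted p = 9.24e-11). At the enzalutamide step that followed TFF1 was higher again, and VCaP-CT-BR-ER libraries reached 1.75, 2.11 and 1.36 CPM (log2 fold change 0.93 against VCaP-CT-BR, SE 0.20, edgeR adjusted p = 0.00078). From high to low, VCaP-T was followed by VCaP-CT, then by VCaP-CT-ER, VCaP-CT-BR-ER and last VCaP-CT-BR. Of the neighbours in that order only the enzalutamide-resistant sublines overlapped, and their difference did not pass (log2 fold change −0.18, edgeR adjusted p = 0.421). The ratio of TFF3 to TFF1 by RPKM was 2.28 ± 0.549 (SD, n = 3) in VCaP-CT, while VCaP-CT-BR had 1.35 ± 0.3, and TFF3 was above TFF1 in both. The ratio was 0.532 ± 0.024 in VCaP-T, 0.577 ± 0.112 for VCaP-CT-BR-ER and 0.149 ± 0.028 for VCaP-CT-ER.

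TFF2, the trefoil factor of gastric neck cells, was close to absent. It had 2 fragments in each VCaP-T library, 1 in VCaP-CT replicate 1, 1 in VCaP-CT-BR-ER replicate 2 and 0 in the other 10 libraries, 8 in all. A count of 0 allows up to 3 fragments, which is 0.0639 to 0.0891 CPM in these libraries and covers counting error only. No fold change is given for TFF2, because all sublines were at or under that floor.

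AGR2 and AGR3 are neighbours on the minus strand of chromosome 7, AGR2 at chr7:16791811-16833433 and AGR3 at chr7:16859405-16881987. Their coding sequences were identical at 69.1% of 498 aligned bases. The longest run that they share is 14 bases long, too short to mix their reads.
shared run of AGR2 and AGR3: aacatgaagaaagc
RefSeq (GRCh38.p14) gave a promoter for 3 of the 6 genes, AGR2, AGR3 and SPDEF. The 250 bases before the start of both AGR genes, chr7:16805000-16805249 for AGR2 and chr7:16881984-16882233 for AGR3 (minus strand, 5′ to 3′), are shown because the genes moved in the same direction at each derivation step. The start that RefSeq gives for AGR2 lies inside the span of the gene given above, which reaches farther upstream to another annotated start. Capitals mark the motifs found.
AGR2 promoter: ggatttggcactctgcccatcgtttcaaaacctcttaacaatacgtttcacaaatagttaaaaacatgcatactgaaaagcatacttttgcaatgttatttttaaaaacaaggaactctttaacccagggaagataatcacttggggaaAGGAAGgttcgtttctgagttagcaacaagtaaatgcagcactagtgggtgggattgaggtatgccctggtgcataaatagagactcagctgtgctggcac
AGR3 promoter: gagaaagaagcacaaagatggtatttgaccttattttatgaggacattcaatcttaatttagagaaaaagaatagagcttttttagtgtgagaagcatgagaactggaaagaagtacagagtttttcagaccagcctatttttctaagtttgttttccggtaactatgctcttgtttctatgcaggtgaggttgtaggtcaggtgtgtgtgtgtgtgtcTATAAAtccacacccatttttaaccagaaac
On both strands the sequences were searched for TGTTTAC and TATTTAC (forkhead), AGGAAG (ETS) and TATAAA (the TATA box), letters picked after the sequences had been seen. The AGR2 promoter held AGGAAG from −101 to −96, and 28.7% of the 35116 promoters of the same table hold it. The AGR3 promoter held TATAAA from −31 to −26, as 10.7% of promoters do. The other letters were found in neither AGR window and occur in 2.98% (TGTTTAC) and 2.39% (TATTTAC) of all promoters. The SPDEF promoter, which is not shown, held TATTTAC on the opposite strand from −49 to −43 and AGGAAG from −42 to −37. A match describes these letters and not a site in use.

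AGR2 was the most abundant of the secreted and endoplasmic reticulum members in all 5 sublines, at the 96.5th percentile by RPKM or higher. VCaP-T libraries had 624, 630 and 521 CPM and VCaP-CT libraries 280, 234 and 286 CPM, a fall of 2.22-fold (log2 fold change −1.15, SE 0.08, edgeR adjusted p = 2.19e-11). VCaP-CT-ER libraries then reached 859, 836 and 969 CPM. This was 3.33-fold above VCaP-CT (log2 fold change 1.74, SE 0.08, edgeR adjusted p = 3.58e-14) and 1.5-fold above VCaP-T (0.59, edgeR adjusted p = 4.77e-07). VCaP-CT-BR went the other way, to 172, 171 and 172 CPM (log2 fold change −0.63 against VCaP-CT, edgeR adjusted p = 5.04e-07). In VCaP-CT-BR-ER, AGR2 was 2.06-fold above VCaP-CT-BR, at 347, 344 and 368 CPM (log2 fold change 1.04, edgeR adjusted p = 4.79e-10), still 2.51-fold below VCaP-CT-ER (−1.33, edgeR adjusted p = 5.61e-12). The libraries of the 5 sublines did not overlap, with VCaP-CT-ER at the top, then VCaP-T, then VCaP-CT-BR-ER, VCaP-CT and at the bottom VCaP-CT-BR. AGR2 and TFF3 lay farthest apart in VCaP-CT-ER, where the ratio of AGR2 to TFF3 by RPKM was 603 ± 139 (SD, n = 3). That ratio was 4.34 ± 0.961 for VCaP-CT, 28.2 ± 1.36 for VCaP-CT-BR and 70.1 ± 5.03 for VCaP-CT-BR-ER.

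AGR3, the less studied sister of AGR2 and known from ciliated airway cells, had 47.3, 47.9 and 36.6 CPM in VCaP-T. VCaP-CT libraries had 1.99, 0.683 and 1.12 CPM. That fall was 35-fold (log2 fold change −5.13, SE 0.18, edgeR adjusted p = 3.7e-16), against 2.22-fold for AGR2 at the same step. VCaP-CT-ER libraries had 4.37, 4.45 and 4.4 CPM of AGR3, 3.51-fold above VCaP-CT (log2 fold change 1.81, edgeR adjusted p = 1.89e-07) and 9.96-fold below VCaP-T (−3.32, edgeR adjusted p = 9.23e-15). VCaP-CT-BR libraries had 0.648, 0.811 and 0.521 CPM, which overlapped with VCaP-CT. The fall at the bicalutamide step passed (log2 fold change −0.93, SE 0.30, edgeR adjusted p = 0.0141), but not without VCaP-CT replicate 1 (−0.44, edgeR adjusted p = 0.208) or without VCaP-CT-BR replicate 3 (−0.78, edgeR adjusted p = 0.0641). At the enzalutamide step that followed AGR3 rose 8.82-fold, to 6.07, 5.69 and 5.69 CPM (log2 fold change 3.14, SE 0.23, edgeR adjusted p = 3.92e-10). It was slightly above VCaP-CT-ER (log2 fold change 0.40, edgeR adjusted p = 0.043), a call that was lost in 12 of 21 alternatives. These were DESeq2 (adjusted p = 0.171), upper-quartile scaling, the stricter filter, and leaving out VCaP-T replicate 1, VCaP-CT replicate 3, VCaP-CT-BR replicate 3 or any 1 library of the compared sublines (edgeR adjusted p between 0.0501 and 0.126). The ratio of AGR2 to AGR3 by RPKM was 5.51 ± 0.247 (SD, n = 3) in VCaP-T. VCaP-CT had a ratio of 100 ± 41.3, VCaP-CT-ER of 82.2 ± 6.87, VCaP-CT-BR of 110 ± 24.4 and VCaP-CT-BR-ER of 24.8 ± 1.54. An intron of AGR3 holds the pseudogene RAD17P1 on the same strand, which was counted separately with 205 fragments over all 15 libraries, against 6521 for AGR3.

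SPDEF lies on the minus strand of chromosome 6, at chr6:34537802-34556333. Unlike TFF1, AGR2 and AGR3 it did not pass the test at the low-testosterone step. VCaP-T libraries had 652, 549 and 662 CPM and VCaP-CT libraries 694, 814 and 594 CPM, which overlapped (log2 fold change 0.17, SE 0.11, edgeR adjusted p = 0.18). The difference passed without VCaP-CT replicate 3 (0.27, edgeR adjusted p = 0.0425) and without the filter on low counts (0.17, edgeR adjusted p = 0.00327). Without the filter the log2 fold change was the same and only the SE was smaller, 0.05 in place of 0.11. All 3 antiandrogen-resistant sublines were lower than VCaP-CT and did not overlap with it. VCaP-CT-ER libraries had 336, 328 and 270 CPM (log2 fold change −1.17, SE 0.11, edgeR adjusted p = 1.39e-08), VCaP-CT-BR libraries 285, 388 and 358 CPM (−1.03, edgeR adjusted p = 1.73e-07) and VCaP-CT-BR-ER libraries 356, 407 and 345 CPM (−0.92, edgeR adjusted p = 5.85e-07). Among these 3 sublines the means of 312 to 369 CPM did not differ past the threshold. Against VCaP-CT-BR, VCaP-CT-BR-ER differed by 0.10 on the log2 scale (edgeR adjusted p = 0.498), and against VCaP-CT-ER by 0.24 (edgeR adjusted p = 0.0817). The latter passed with only the compared sublines in the fit (0.24, edgeR adjusted p = 0.00757) and without the filter (0.23, edgeR adjusted p = 5.43e-05). In neither fit was the difference itself larger. Even at its lowest, in VCaP-CT-ER, SPDEF stayed at the 98.8th percentile of the tested genes by RPKM.

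**Figure D2:**
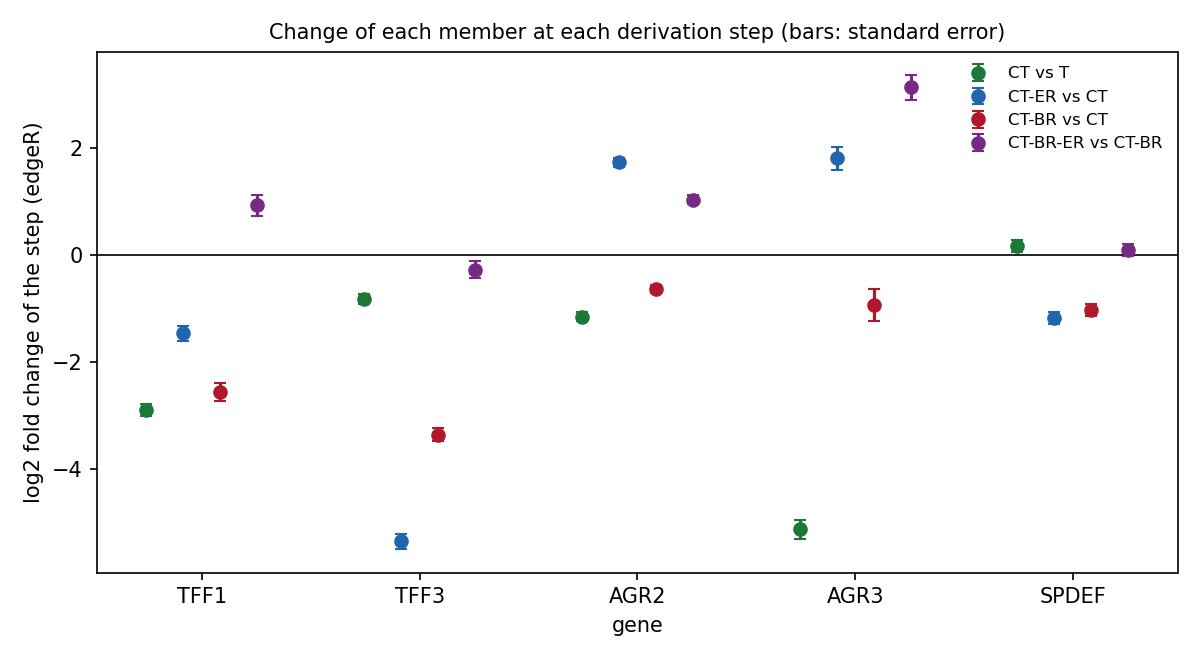
Log2 fold change of each gene at each derivation step, from the edgeR fit over 15 libraries, with bars for the standard error. Of the 5 genes, AGR3 differed most in VCaP-CT against VCaP-T, by −5.13, and SPDEF least, by 0.17. TFF3 had the most negative value in VCaP-CT-ER against VCaP-CT, −5.36, a step at which AGR2 rose by 1.74 and AGR3 by 1.81.

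Most genes differed between these sublines, and the number of members called is set beside that background. How many of all tested genes had libraries without overlap was not counted, so separation of libraries is not a mark of these members. In VCaP-CT against VCaP-T, 3 of the 4 members with a test were called, all lower, where 65.3% of the 19621 tested genes were called and 32.2% were called lower. In VCaP-CT-ER against VCaP-CT all 4 were called, TFF1 and SPDEF lower and AGR2 and AGR3 higher, beside 60.9% of tested genes. In VCaP-CT-BR against VCaP-CT all 4 were lower, beside 53.2% of genes called and 27.0% called lower. At the enzalutamide step from VCaP-CT-BR, TFF1, AGR2 and AGR3 were higher and SPDEF was not called, beside 42.9% of genes called and 21.2% called higher. Across longer spans, all 4 were called in VCaP-CT-ER against VCaP-T (69.0% of genes) and in VCaP-CT-BR-ER against VCaP-CT (52.5% of genes), and 2 of 4, AGR2 and AGR3, between the enzalutamide-resistant sublines (45.9% of genes). By size, a change of at least 2-fold was seen in 21.7% of tested genes at the low-testosterone step, 18.5% at the enzalutamide step from VCaP-CT, 11.7% at the bicalutamide step and 9.97% at the enzalutamide step from VCaP-CT-BR. The median log2 fold change of all tested genes lay within 0.03 of 0 at each of these steps.

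Enzalutamide was given to cells of a different history on the way to VCaP-CT-ER and on the way to VCaP-CT-BR-ER, and the difference between these steps was tested. Each subline is a single derivation, so drug history, time in culture and derivation cannot be told apart in this difference. The difference between the steps was called for all 4 members with a test, as it was for 49.7% of all tested genes. TFF1 went down from VCaP-CT and up from VCaP-CT-BR, a difference of −2.38 on the log2 scale (SE 0.25, edgeR adjusted p = 7.53e-08). SPDEF fell from VCaP-CT and did not pass from VCaP-CT-BR, where it was already low, a difference of −1.27 (SE 0.16, edgeR adjusted p = 1.12e-06). AGR2 rose in both, by 0.70 more from VCaP-CT (SE 0.11, edgeR adjusted p = 1.39e-05). AGR3 rose in both as well, but less from VCaP-CT (log2 difference −1.33, SE 0.34, edgeR adjusted p = 0.00285), and this was −0.84 without VCaP-CT replicate 1 (edgeR adjusted p = 0.0316). For TFF3 the steps were −5.36 and −0.27, described without a test. The steps start from different sublines, VCaP-CT and VCaP-CT-BR, whose levels are given above for each gene.

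The genes around the trefoil cluster were looked at because of their position (3 nearest tested genes on each side). TMPRSS3, a membrane serine protease gene 5.24 kb beyond TFF1, had 11.4 CPM in VCaP-T. VCaP-CT followed with 1.83 CPM, then VCaP-CT-ER with 0.487, VCaP-CT-BR-ER with 0.349 and VCaP-CT-BR with 0.187, the order of the sublines for TFF1. Its first 3 steps passed (log2 fold change −2.65, −1.93 and −3.26, edgeR adjusted p = 5.6e-12, 6.71e-07 and 1.79e-08) and the last did not (0.90, edgeR adjusted p = 0.0986). ABCG1, a cholesterol exporter gene 14.4 kb beyond TFF3, had 46.9 CPM before the low-testosterone step and 41.4 after it, and between 9.07 and 26.8 CPM in the antiandrogen-resistant sublines. As with TFF3, its lowest level was in VCaP-CT-ER (log2 fold change −2.19 against VCaP-CT, edgeR adjusted p = 1.32e-17), though the size was smaller. RSPH1, a gene of ciliary radial spokes 106 kb beyond TFF1, moved in the direction of TFF1 at 3 steps, with a fall in VCaP-CT-ER (−1.73, edgeR adjusted p = 1.84e-10), a fall in VCaP-CT-BR (−1.06, edgeR adjusted p = 3.14e-07) and a rise in VCaP-CT-BR-ER (1.05, edgeR adjusted p = 3.96e-07). At the low-testosterone step, at which TFF1 fell most, RSPH1 had a value of −0.03 (edgeR adjusted p = 0.825). ZBTB21, 301 kb beyond TFF3, moved by at most 0.42 at any step. UMODL1 lay between 0.849 and 1.51 CPM and was called only at the bicalutamide step, where it fell (log2 fold change −0.66, edgeR adjusted p = 0.0147). UBASH3A, a T-cell signalling gene, had 0.531 CPM in VCaP-T and at most 0.0346 CPM in the other sublines.

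**Figure D3:**
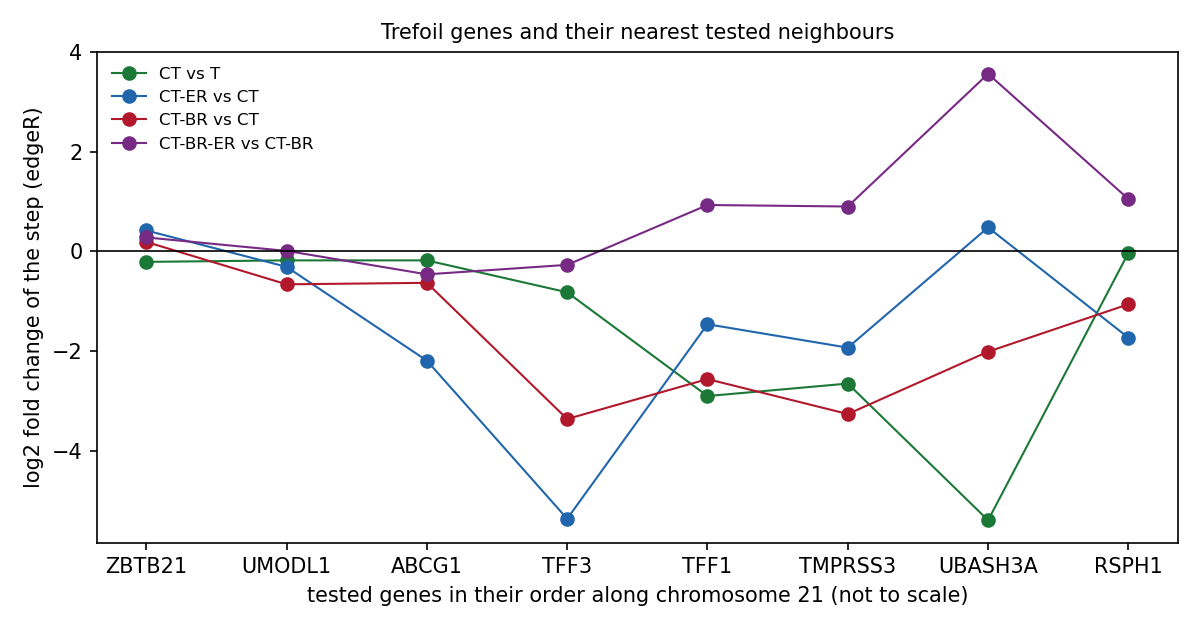
Log2 fold change at each derivation step for TFF3, TFF1 and the 3 nearest tested genes on each side, in their order along chromosome 21 and not to scale. TFF3 and ABCG1 had their most negative values at VCaP-CT-ER against VCaP-CT (−5.36 and −2.19), whereas TFF1 and TMPRSS3 were already lower in VCaP-CT than in VCaP-T (−2.90 and −2.65). Lines only join the genes of a step.

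Beside the AGR genes, TSPAN13, a tetraspanin gene 7.28 kb beyond AGR2, fell with them at the low-testosterone step, from 288 to 116 CPM (log2 fold change −1.31, edgeR adjusted p = 8.68e-14), and was then level, at 114 to 123 CPM. AHR, the aryl hydrocarbon receptor gene 34.4 kb beyond AGR3, also fell at that step (−1.47, edgeR adjusted p = 4.36e-09) and rose in VCaP-CT-ER (0.41, edgeR adjusted p = 0.0196), as AGR2 and AGR3 did. It then went opposite to AGR2, with a rise at the bicalutamide step (0.76, edgeR adjusted p = 0.00013) and a fall at the enzalutamide step that followed (−1.03, edgeR adjusted p = 5.87e-06). SPDEF's nearest neighbour, PACSIN1, a gene of endocytosis 2.57 kb away, fell like SPDEF at the enzalutamide step from VCaP-CT, though by less (log2 fold change −0.33, edgeR adjusted p = 0.0031). It also fell at the low-testosterone step (−0.56, edgeR adjusted p = 1.1e-05) and at the enzalutamide step from VCaP-CT-BR (−0.30, edgeR adjusted p = 0.00887), at which SPDEF was not called, and its value at the bicalutamide step was 0.09 (edgeR adjusted p = 0.42). The other neighbours were mixed at the low-testosterone step. Beside the AGR genes, ANKMY2 (−1.45, edgeR adjusted p = 2.58e-11) and SNX13 (−0.97, edgeR adjusted p = 1.03e-10) fell. Beside SPDEF, RPS10 (0.94, edgeR adjusted p = 7.22e-09), ILRUN (0.54, edgeR adjusted p = 5.13e-10) and ILRUN-AS1 (0.52, edgeR adjusted p = 0.0118) rose. BZW2 (0.12, edgeR adjusted p = 0.0524) and the rest were not called.

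Genes that a secretory cell uses together with these members were taken from lists named for function. Of 20 mucins and mucus partners only 6 passed the filter, and MUC4, MUC6, MUC17, MUC20 and GKN1 had 0 counts in all libraries. FCGBP, a mucus protein that binds trefoil factors, fell from 29.9 ± 1.98 to 0.705 ± 0.269 CPM at the low-testosterone step (n = 3 each, log2 fold change −5.41, edgeR adjusted p = 3.27e-17). MUCL1, a small mucin of breast and skin glands, rose to 7.89 ± 0.487 CPM in VCaP-CT-ER (3.77 against VCaP-CT, edgeR adjusted p = 1.55e-14). Of 9 proposed receptors of trefoil and AGR proteins 7 passed the filter. CXCR4 had at most 1 count and LINGO2 had 0, while the related receptor ACKR3 rose from 0.199 to 4.69 CPM at the low-testosterone step (log2 fold change 4.54, edgeR adjusted p = 7.87e-13). EGFR fell from 77.3 to 32.5 CPM at the same step (−1.25, edgeR adjusted p = 1.77e-13) and to 16.5 CPM at the bicalutamide step (−0.98, edgeR adjusted p = 1.2e-10). CD44, a hyaluronan receptor, fell most in VCaP-CT-ER, from 31.0 to 6.75 CPM (−2.20, edgeR adjusted p = 3.57e-17).

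Most protein disulfide isomerase relatives of the AGR genes were higher at both enzalutamide steps. Of 18 listed, 17 were tested, and 13 were higher and 2 lower in VCaP-CT-ER against VCaP-CT (median log2 fold change 0.38, against −0.02 for all tested genes, of which 29.6% were called higher and 31.2% lower). At the enzalutamide step from VCaP-CT-BR, 13 were higher and 1 lower (median 0.33), beside 21.2% of all tested genes higher and 21.7% lower. These are the steps at which AGR2 and AGR3 rose. At the low-testosterone step 6 were higher and 8 lower (median −0.01), beside 33.1% and 32.2% of all tested genes. At the bicalutamide step 7 were higher and 10 lower (median −0.22), beside 26.1% and 27.0%. ERP27, a noncatalytic member of the family, was the gene of the list that rose most in VCaP-CT-ER, from 3.15 ± 0.242 to 19.1 ± 1.35 CPM (log2 fold change 2.60, edgeR adjusted p = 2.91e-15). Like AGR2 it was lower in VCaP-CT-BR (−0.85, edgeR adjusted p = 1.28e-05) and higher in VCaP-CT-BR-ER than in VCaP-CT-BR (1.09, edgeR adjusted p = 3.76e-07). Unlike AGR2, ERP27 was not called at the low-testosterone step (−0.01, edgeR adjusted p = 0.962). PDIA2 went against AGR2 at 2 steps, with a rise at the low-testosterone step (1.52, edgeR adjusted p = 8.53e-10) and a fall in VCaP-CT-ER (−1.31, edgeR adjusted p = 7.27e-09). It went with AGR2 at the bicalutamide step (−0.54, edgeR adjusted p = 0.000593) and at the enzalutamide step from VCaP-CT-BR (0.53, edgeR adjusted p = 0.000845).

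Of 19 secretory genes that have been linked to SPDEF, 17 were tested. More of them fell than rose in VCaP-CT-ER and VCaP-CT-BR against VCaP-CT, as SPDEF did, though single genes went other ways. The list departed from SPDEF at the low-testosterone step. At the low-testosterone step, at which SPDEF was not called, 13 of them fell and 2 rose (median log2 fold change −0.93), where 32.2% of all tested genes were lower and 33.1% higher. In VCaP-CT-ER against VCaP-CT 10 fell and 3 rose (median −0.33), beside 31.2% and 29.6% of all tested genes. In VCaP-CT-BR against VCaP-CT 12 fell and 2 rose (median −0.97), beside 27.0% and 26.1%, and at the enzalutamide step from VCaP-CT-BR 5 fell and 5 rose (median 0.14), beside 21.7% and 21.2%. CREB3L1, a transcription factor of the secretory pathway, was the gene of the list that fell most in VCaP-CT-ER, from 57.8 ± 4.18 to 1.8 ± 0.24 CPM (−5.01, edgeR adjusted p = 3.76e-20), a size near that of TFF3. ST6GALNAC1, the enzyme that makes the sialyl-Tn antigen, was the gene of the list that fell most at the enzalutamide step from VCaP-CT-BR, from 26.3 ± 0.514 to 3.58 ± 0.779 CPM (−2.87, edgeR adjusted p = 6.91e-16), a step at which AGR2 and AGR3 rose. KLK3, which encodes prostate-specific antigen, fell from 3560 to 33.2 CPM at the low-testosterone step (−6.75, edgeR adjusted p = 1.3e-25) and rose to 521 CPM in VCaP-CT-ER (3.97, edgeR adjusted p = 1.95e-22), the directions of AGR2 and AGR3.

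**Figure D4:**
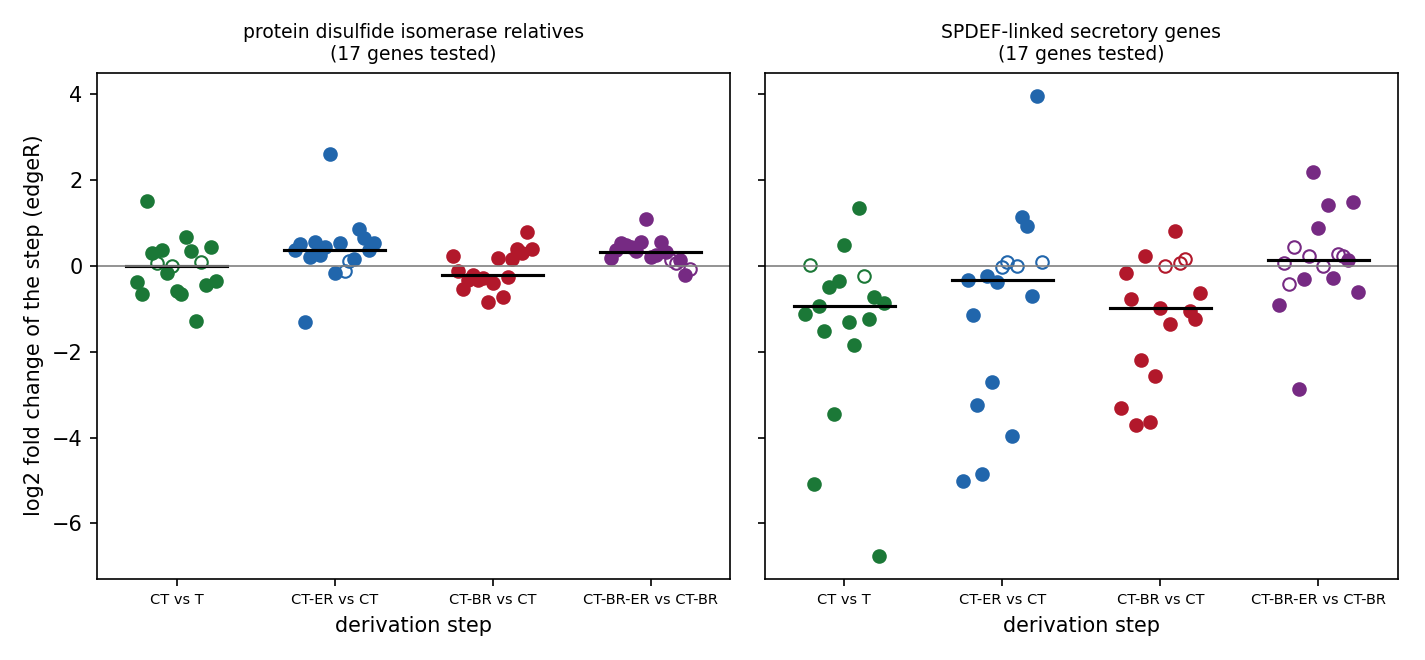
Log2 fold change of each tested gene of 2 lists, the protein disulfide isomerase relatives and the SPDEF-linked secretory genes (17 tested genes each), at each derivation step. Filled points passed an adjusted p of 0.05 in edgeR, open points did not, and the black line is the median. The isomerase relatives had medians of 0.38 and 0.33 at the steps to both enzalutamide-resistant sublines, and the SPDEF-linked genes had medians of −0.93 and −0.97 at the steps to VCaP-CT and VCaP-CT-BR.

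Of 17 transcription factors tied to the members, 13 were tested. At the low-testosterone step 6 were higher and 7 lower (median log2 fold change −0.36), where 65.3% of all tested genes were called. In VCaP-CT-ER against VCaP-CT 5 were higher and 6 lower (median −0.09), beside 60.9% of all tested genes called. In VCaP-CT-BR against VCaP-CT 3 were higher and 7 lower (median −0.13), beside 53.2% called, and at the enzalutamide step from VCaP-CT-BR 5 were higher and 4 lower (median 0.01), beside 42.9% called. HNF4G, a nuclear receptor of gut epithelium, fell from 10.4 ± 0.476 to 0.241 ± 0.0606 CPM at the low-testosterone step (n = 3 each, log2 fold change −5.41, edgeR adjusted p = 1.45e-16) and rose to 20.8 ± 1.26 CPM in VCaP-CT-ER (6.42, edgeR adjusted p = 2.93e-18). It also rose at the enzalutamide step from VCaP-CT-BR, from 1.26 to 3.98 CPM (1.67, edgeR adjusted p = 4.32e-09). AGR2 and AGR3 moved in its direction at these 3 steps, but at the bicalutamide step HNF4G rose (2.37, edgeR adjusted p = 1.16e-07) where AGR2 and AGR3 were lower. SOX9, a factor of progenitor cells in many epithelia, fell at the bicalutamide step from 53.4 to 19.2 CPM (−1.47, edgeR adjusted p = 8.08e-14). EHF, an ETS-family factor of epithelia like SPDEF, rose at the low-testosterone step from 128 to 250 CPM (0.97, edgeR adjusted p = 1.58e-11). ELF5, another ETS-family factor, fell in VCaP-CT-ER from 6.66 to 3.01 CPM (−1.15, edgeR adjusted p = 1.28e-09), as SPDEF did, but rose at the bicalutamide step (0.62, edgeR adjusted p = 3.69e-06), at which SPDEF fell. Unlike SPDEF it was also called at the low-testosterone step (0.70, edgeR adjusted p = 1.25e-06) and at the enzalutamide step from VCaP-CT-BR (−1.04, edgeR adjusted p = 4.22e-09). CDX2, the intestinal homeobox factor, fell at the enzalutamide step from VCaP-CT-BR from 5.74 to 1.91 CPM (−1.58, edgeR adjusted p = 4.61e-09), a step at which SPDEF was not called. The 5 intestinal markers (CDX2, VIL1, CDH17, LGALS4 and MUC2) summed to 44.7 to 47.3 CPM in VCaP-T. VCaP-CT libraries had 6.61 to 7.46 CPM, VCaP-CT-ER libraries 19.3 to 21.7, VCaP-CT-BR libraries 8.56 to 9.71 and VCaP-CT-BR-ER libraries 4.85 to 5.26, with MUC2 at 3 counts or fewer in these 4 sublines. The luminal markers summed to 20800 to 21700, 9580 to 10400, 10100 to 11000, 6330 to 6700 and 4780 to 4980 CPM in the same order. Both sums were highest in VCaP-T and lowest in VCaP-CT-BR-ER, but single markers went other ways. KLK2 made up most of the luminal sum (14400 CPM at its highest, in VCaP-T, and 3360 at its lowest, in VCaP-CT-BR-ER), whereas HOXB13 was highest in VCaP-CT, at 709 CPM, and lowest in VCaP-CT-ER, at 392. CDX2 was highest in VCaP-CT-ER, at 6.36 CPM, and had 2.23 in VCaP-T. Markers of other cell types also moved. The 2 neuroendocrine markers (CHGA and CHGB) summed to 155 to 166 CPM in VCaP-T and 0.57 to 1.39 CPM in the other sublines, with CHGA at 3 counts or fewer in each. The 3 basal markers (KRT5, KRT14 and TP63, 1 of them tested) summed to 9.58 to 11.1 CPM for VCaP-T, 2.29 to 2.84 for VCaP-CT and 0.194 to 1.21 for the others, with KRT5 at 3 counts or fewer outside VCaP-T. The 3 fibroblast markers (COL1A1, COL1A2 and DCN) summed to 5.83 to 7.27 CPM in VCaP-T and 0.57 to 1.39 elsewhere, with COL1A2 at 3 counts or fewer in every subline. The 2 endothelial markers (PECAM1 and VWF) summed to 13.2 to 16.2 CPM for VCaP-T, 8.16 to 9.31 for VCaP-CT and 0.0745 to 1.54 for the others. TFF1, TFF3 and AGR3 were highest in VCaP-T as well, and the part of these markers in the levels of the secretory genes was not tested. The lists of mucins, transcription factors and SPDEF-linked genes share MUC2, CDX2, ERG, HOXB13, KLK2 and KLK3 with these markers, so the sums are not independent of them. The same holds for the gastric markers, which share GKN1, GKN2, MUC5AC and MUC6 with the list of mucins.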

How the data were processed

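Total RNA of VCaP sublines was sequenced on Illumina machines. Reads were mapped by the authors with STAR 2.5.4b (GRCh38), and they deposited raw counts of fragments per gene from featureCounts 1.6.2 on GENCODE release 28, counted without regard to strand and not normalized. Symbols came from GENCODE release 44 (57754 of 58381 identifiers matched). Library totals were 33665716 to 46935279, and floors of 3 counts cover counting error only.

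Counts were tested in R 4.3.3 with the quasi-likelihood test of edgeR 4.0.16 (19621 genes kept by filterByExpr with its minimum count set to 10, TMM, a term per subline over all 15 libraries, two-sided, Benjamini-Hochberg adjustment, threshold 0.05; biological coefficient of variation 0.0609), checked on simulated data. CPM use TMM-scaled library sizes and RPKM the exon length in the files. The standard errors of edgeR were worked out from its test, as the size of the log2 fold change over the square root of the F statistic. Those given for TFF3 come from the same statistic and only describe spread, since the group was chosen by its fall. Comparisons were 10 pairs of sublines and the difference between the enzalutamide steps. Comparisons against the same subline share its libraries. The replicates are described as biological, but each subline is a single derivation and separate cultures are not mentioned, so p-values measure only the spread between these libraries. Samples were grouped by their titles.

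The members and all lists were chosen with earlier results of these data known. Genes named from each list were mainly taken from those that rose or fell most at a step, passed the test and averaged a log2 CPM of 1 or more. Not all such genes are named. The 3 nearest tested genes on each side of the trefoil locus are all described. For the AGR genes and SPDEF, some neighbours are given at the low-testosterone step only and some are not named. CXCR4, LINGO2 and the mucins at 0 were added after their values were seen. Some listed items are not reported here and were left out of their lists and sums. The genes most like each member were the 3 with the highest Pearson r of log2 CPM. Alternatives were DESeq2 1.42.0, upper-quartile scaling, other filters, only the compared sublines, a replicate block, and leaving out each library in turn. Python 3.11.15, pandas 2.3.3, numpy 2.4.6 and matplotlib 3.10.9 made the tables and figures.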

Additional observations from a re-analysis of the deposited data

Results flagged for a closer look

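The step to VCaP-CT-ER, which began from VCaP-CT, differed from the step to VCaP-CT-BR-ER, which began from VCaP-CT-BR, by edgeR's test of the difference itself, for 4 genes. The log2 difference was −2.38 for TFF1, which fell in the first step and rose in the second, and −1.27 for SPDEF, which fell in the first and was not called in the second. It was 0.70 for AGR2 and −1.33 for AGR3, which rose in both. The difference was called for 49.7% of all tested genes.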

How the results depend on the processing

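The 11 counts of called genes stayed within 1.5 times the reported count in all 231 alternatives. For the 44 log2 fold changes of TFF1, AGR2, AGR3 and SPDEF, 905 of 924 alternatives kept the direction and the side of the threshold. The sign changed once, for SPDEF in VCaP-CT-BR-ER against VCaP-CT-BR, which was −0.00 without VCaP-CT-BR replicate 1 (edgeR adjusted p = 0.983), up to 0.21 without other single libraries, and had not been called. A call was lost in 14 alternatives, all for AGR3, 12 of them in VCaP-CT-BR-ER against VCaP-CT-ER (log2 fold change 0.36 to 0.42, adjusted p 0.0501 to 0.171) and 2 in VCaP-CT-BR against VCaP-CT. A call was gained in 4, all for SPDEF. The causes were not tested. The fits without a library keep 2 in its subline, and share the spread of all sublines. TFF2 failed the filter and was at or under 3 counts in all libraries, so no fold change is given for it under any alternative.

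The replicate numbers of the labels gave no pairing that held across all sublines. In 0 of 10 pairs of sublines were all 3 same-number correlations over 0.1, with the mean of each subline removed. The mean of these correlations was −0.005, and 8 of 15 libraries correlated best with their own number. Removing the means ties the mean for other numbers (0.003) to that value, so setting them side by side tests nothing. Replicates numbered 2 correlated by 0.173 to 0.433 between sublines other than VCaP-T, but by −0.464 to −0.204 with VCaP-T. With the replicate block, 12727 genes were called in VCaP-CT against VCaP-T in place of 12821, and no call of the 4 genes changed. Depth limits TFF1 and AGR3 in VCaP-CT-BR, TFF3 in VCaP-CT-ER and AGR3 in VCaP-CT, which rest on 21 to 66 fragments a library, and TFF2, with at most 2.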

Other observations

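For each of the 5 members past the filter, the 3 tested genes with the most similar log2 CPM over the 15 libraries were taken out of 13052 genes. These are descriptions; the libraries fall into 5 sublines, so the values mostly compare 5 levels. TFF1 was most like HS1BP3, TNS2 and COL4A2, a collagen chain of basement membranes (Pearson r 0.992, 0.991 and 0.990). TFF3 was most like C20orf96, ANXA11, an annexin, and NATD1 (0.992, 0.990 and 0.989), with NATD1 at 14.3 CPM in VCaP-CT and 3.32 in VCaP-CT-ER. AGR2 was most like BMP2, a bone morphogenetic protein, DZIP3 and PPFIBP2 (0.986, 0.984 and 0.983). For BMP2, VCaP-T had 11.7 CPM, VCaP-CT had 3.62, VCaP-CT-ER had 15.9, VCaP-CT-BR had 2.05 and VCaP-CT-BR-ER had 4.49. AGR3 was most like TNFRSF10B, a receptor of the death ligand TRAIL, ATF3, a stress-induced transcription factor, and INTS10 (0.981, 0.979 and 0.977). ATF3 had 25.8 CPM in VCaP-T and 1.13 to 4.09 in the other sublines. SPDEF was most like ENTPD6, UNC93B1 and DGKD (0.988, 0.986 and 0.985).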
